A study of Mus musculus with 4 samples.

Results

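The genes described here are the mouse matrix metalloproteinases (MMPs), the ADAMTS proteases (a disintegrin and metalloproteinase with thrombospondin motifs) and the tissue inhibitors of metalloproteinases (TIMPs). They were chosen by symbol alone, from the rows to which the platform annotation gives exactly 1 gene symbol. Of 19938 genes so named, 44 belong to these families: 22 MMP, 18 ADAMTS and 4 TIMP genes. Mmp15 and Adamts2 had no such row and were not analysed here. The samples are livers of male mice aged 8 weeks, and RNA was hybridised to Affymetrix whole-transcript arrays. There was 1 array for each of 4 genotypes: GHR/MDR2 double knockouts (double-null), GHR knockout (GHR-null), MDR2 knockout (MDR2-null) and wildtype. Each array held RNA pooled from 3 livers. MDR2 is the phosphatidylcholine transporter of the bile canaliculus, whose gene is Abcb4, and mice without it develop cholestasis with bile duct injury and fibrosis. GHR is the growth hormone receptor. The strain, and whether the deletions are whole-body, are not given in the sources used here. With 1 array per genotype a difference between 2 pools has no replicate check and carries no p-value.

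MMPs are zinc proteases that are made as inactive precursors and, once activated, cut collagens, gelatin, elastin, proteoglycans and cell-surface proteins. ADAMTS proteases are secreted zinc proteases of narrower range: several cut versican and other large proteoglycans, others trim procollagens, and ADAMTS13 cuts von Willebrand factor. TIMPs bind the active site of these enzymes and block it, and in fibrotic liver the balance of proteases and inhibitors is a classic account of why scar builds up or resolves.

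The deposited values are intensities on a linear scale, and differences are given as folds or as log2 differences. The median intensity over rows with 1 symbol was 105 in the double-null, 97 in the GHR-null, 102 in the MDR2-null and 94 in the wild-type pool. Precision is limited by the number of arrays. A gene was called in a pairwise comparison where it was at least 1.5-fold apart and the higher of the 2 arrays was at or above 100, the median of these rows over all arrays. Whether intensities under 100 lay above background was not shown, and folds that rest on them are inexact. Ghr was 935 and 1395 in the double-null and GHR-null pools, against 4485 and 4944 in the MDR2-null and wild-type pools. Abcb4 was 689 and 663 in the double-null and MDR2-null pools, against 1346 and 1120 in the GHR-null and wild-type pools. The parts of these genes that the probes cover are not given in the sources used here. Xist, an RNA of female cells, was 1400 in the GHR-null pool, against 17, 18 and 16 in the double-null, MDR2-null and wild-type pools, although all are labelled male. The Y-linked genes Kdm5d, Uty and Eif2s3y were at 259, 308 and 680 in the GHR-null pool, against 268, 361 and 899 in the wild-type pool, so RNA of male cells was present in it as well. In the steps taken here, the GHR-null array enters the other comparisons only through the threshold and the choice of row. Their counts were the same with both taken from the other 3 arrays, a setting chosen after seeing the data. The deposited values were not normalized anew for it, so any part of the GHR-null array in their normalization remains. The 10 measured hepatocyte markers lay between 2424 and 15283 in all pools.

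Of the 44 genes, 16 reached 100 on at least 1 array, beside 10764 of all 19938 genes. The cut is a median over all rows, so a value under it does not show that a gene was off. In the other 28 no array reached 100, and their values ran from 11 to 96. They include the 4 collagenase genes Mmp1a, Mmp1b, Mmp8 and Mmp13, at 11 to 43, the 3 stromelysin genes Mmp3, Mmp10 and Mmp11, at 18 to 85, and the gelatinase Mmp9, at 60, 52, 65 and 51 in the double-null, GHR-null, MDR2-null and wild-type pools. Mmp8 and Mmp9 are proteases of neutrophil granules, and the neutrophil markers were mostly low as well. Their 12 markers summed to 577, 602, 610 and 526 in the double-null, GHR-null, MDR2-null and wild-type pools. Of these only Csf3r was called higher in double-null than wild-type livers, at 121, 73, 88 and 51 in the same pools. Timp4 lay between 31 and 35. Among these 28 genes the double-null to wild-type fold ranged between 0.78 and 1.59, and none could be called by the rule. The other 16 genes reached 100 in at least 1 pool: Mmp2, Mmp7, Mmp12, Mmp14, Mmp19, Timp1, Timp2, Timp3 and 8 ADAMTS genes. In 11 of the 16 the double-null pool was the highest of the 4, beside 31.8% of the 10764 genes that reached 100 on some array. Adamts5 is among the 16 only through its double-null value, so the count is a description.

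**Figure D1:**
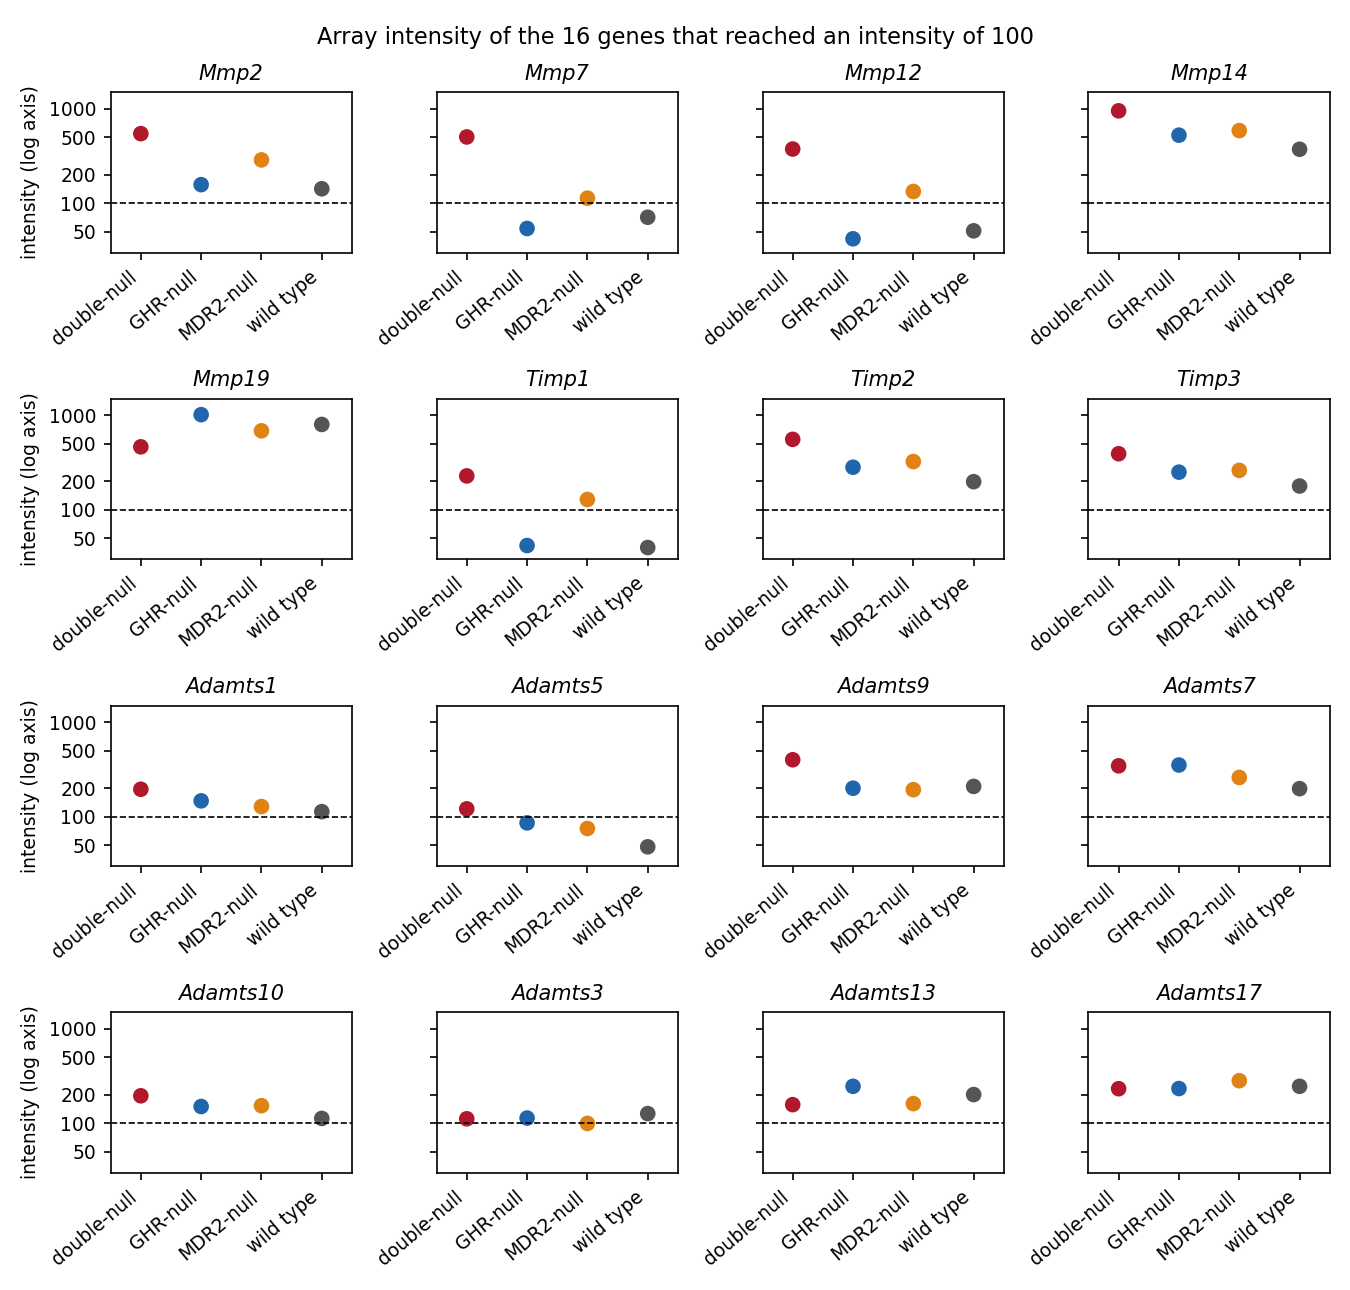
Intensity (log axis) of the 16 genes that reached 100 on any array, with 1 point per pool and the dashed line at 100. The double-null pool holds the highest point in 11 panels, and Mmp7 stands at 502 there, against 113 or less in the other pools.

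In comparisons with the double-null pool the widest differences of the family were those of Mmp7 and Mmp12. Mmp7 encodes matrilysin, a small MMP of ductal and mucosal epithelium that sheds cell-surface proteins, and its intensity was 502 in the double-null, 54 in the GHR-null, 113 in the MDR2-null and 71 in the wild-type pool. The double-null pool was 7.07-fold above the wild-type and 9.30-fold above the GHR-null pool. Mmp12 encodes the macrophage metalloelastase, and it was 374, 42, 133 and 51 in the double-null, GHR-null, MDR2-null and wild-type pools. Its double-null value was 7.33-fold above wild type and 8.90-fold above GHR-null. Among the 10487 genes compared between double-null and wild-type livers, Mmp12 ranked 41 and Mmp7 ranked 44 from the highest difference. With 50 added to each intensity the log2 differences were 2.07 and 2.19, in place of 2.87 and 2.82. In double-null against MDR2-null livers Mmp7 ranked 26 and Mmp12 ranked 74 of 10524. With GHR loss alone neither gene was higher: the GHR-null values were 0.76-fold and 0.82-fold those of wild type, all under 100.

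These are liver pools, in which more cells of a type and more RNA per cell cannot be told apart. Markers of the cells known to make these enzymes were higher in the same pools. The 10 measured cholangiocyte markers summed to an intensity of 3944 in the double-null, 745 in the GHR-null, 1471 in the MDR2-null and 729 in the wild-type pool. Cd24a held much of the double-null sum, at 1722, 126, 470 and 106 in the same pools. Of the 10 markers, 8 were at least 1.5-fold higher in double-null than MDR2-null livers, and 6 in MDR2-null than wild-type livers. The shares over all genes that passed the filter were 7.17% and 6.11%. Prom1 had another order and was highest in the GHR-null pool, at 62, 110, 40 and 39. Epcam, an adhesion molecule of bile duct epithelium, was 329, 40, 113 and 48 in the double-null, GHR-null, MDR2-null and wild-type pools. The 12 macrophage markers summed to 11718, 5316, 8631 and 3850 in the same pools. At least 1.5-fold higher were 4 in double-null than MDR2-null livers and 8 in MDR2-null than wild-type livers, beside the same shares. Cx3cr1, a chemokine receptor of monocyte-derived macrophages, was 525, 62, 168 and 72, the widest fold of the list between double-null and MDR2-null livers. Lyz2, the lysozyme of myeloid cells, held much of the sum, at 5243, 977, 2879 and 847. Of the 12 macrophage markers, 9 were above and 3 below their MDR2-null value in the double-null pool. The 3 are markers of resident Kupffer cells, and all were short of 1.5-fold. Clec4f was 628 against 885, Cd5l 468 against 604 and Vsig4 1426 against 1578. Marco, another Kupffer cell marker, was higher, at 85 against 71, both under 100. No marker of either list was at 0, and the lowest was 22. The part of these cells in the MMP values was not tested.

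Mmp7 and Mmp12 lie in a run of MMP genes on mouse chromosome 9. By RefSeq annotation of GRCm38.p6 the protein-coding genes from Mmp13 to Mmp7 are 10, all MMPs, in the order Mmp13, Mmp12, Mmp1b, Mmp3, Mmp1a, Mmp10, Mmp8, Mmp27, Mmp20 and Mmp7. The other 8 genes of the run were between 11 and 43 on every array. Mmp13, the main interstitial collagenase of rodents and the neighbour of Mmp12, was 39, 43, 43 and 42 in the double-null, GHR-null, MDR2-null and wild-type pools. Mmp20, the enamel protease enamelysin and the neighbour of Mmp7, was 34, 30, 36 and 32.

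**Figure D2:**
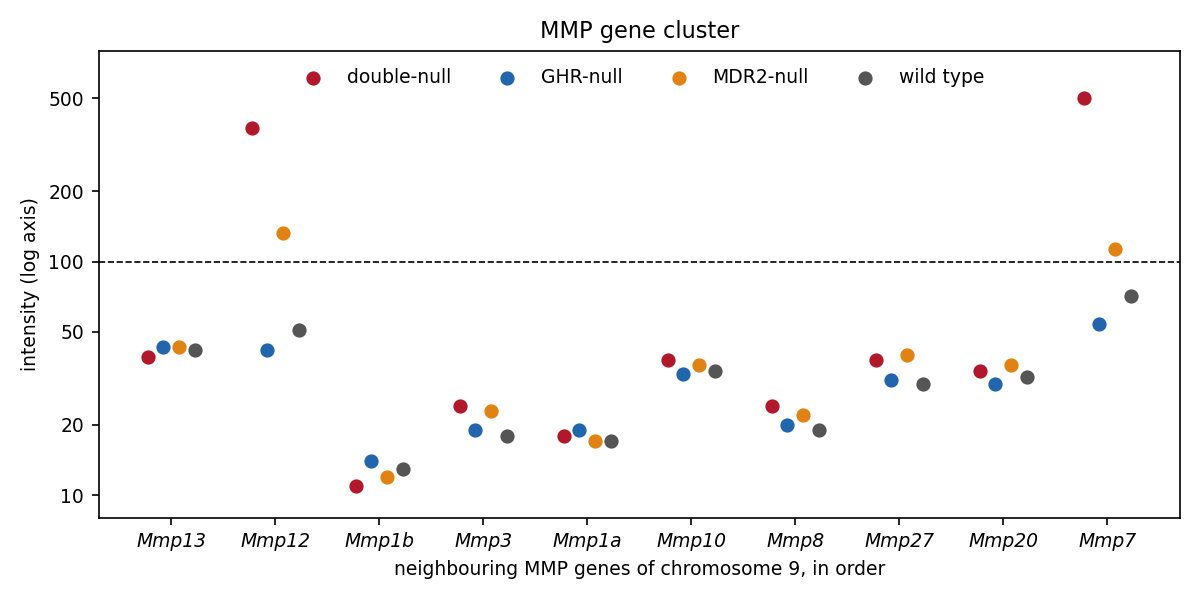
Intensity (log axis) of the 10 neighbouring MMP genes of chromosome 9 in gene order, with 1 point per pool and the dashed line at 100. Only Mmp12 and Mmp7 pass 100, in the double-null and MDR2-null pools, and the other 8 genes stay between 11 and 43.

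The promoters of these neighbours are shown because 8 of the 10 genes share a promoter layout, while only Mmp7 and Mmp12 passed 100. MMP promoters are known for a site of the transcription factor AP-1 close to a TATA box, so the motifs TGANTCA, which reads the same on both strands, and TATAAA on the strand of the gene were searched in RefSeq promoter windows of 300 bases on GRCm38.p6. A window covers 250 bases before and 50 after the start. The whole windows of the 2 genes that passed 100 follow, 5′ to 3′ on the strand of the gene, with TGANTCA and the TATAAA after it in capitals.
Mmp7 (chr9:7691840-7692139, plus strand): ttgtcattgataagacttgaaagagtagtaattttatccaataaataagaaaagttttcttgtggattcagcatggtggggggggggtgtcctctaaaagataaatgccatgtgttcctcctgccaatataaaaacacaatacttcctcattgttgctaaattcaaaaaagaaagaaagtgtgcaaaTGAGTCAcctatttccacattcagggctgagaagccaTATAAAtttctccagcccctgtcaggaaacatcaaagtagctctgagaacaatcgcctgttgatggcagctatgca
Mmp12 (chr9:7347124-7347423, plus strand): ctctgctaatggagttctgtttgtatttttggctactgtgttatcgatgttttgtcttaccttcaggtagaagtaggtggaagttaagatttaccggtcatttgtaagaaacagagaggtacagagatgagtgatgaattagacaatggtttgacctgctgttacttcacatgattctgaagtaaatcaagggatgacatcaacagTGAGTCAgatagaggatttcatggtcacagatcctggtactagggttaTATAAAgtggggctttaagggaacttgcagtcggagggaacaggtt
For 6 of the 8 neighbours under 100 only the stretch around the same letters is shown, in gene order, since it carries the comparison.
Mmp13 (chr9:7272467-7272515, plus strand): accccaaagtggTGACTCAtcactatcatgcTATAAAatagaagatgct
Mmp1b (chr9:7388058-7388131, minus strand): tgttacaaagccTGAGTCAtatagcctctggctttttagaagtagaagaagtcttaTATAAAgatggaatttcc
Mmp3 (chr9:7445764-7445832, plus strand): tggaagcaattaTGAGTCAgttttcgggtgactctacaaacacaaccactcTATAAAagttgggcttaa
Mmp1a (chr9:7464056-7464130, plus strand): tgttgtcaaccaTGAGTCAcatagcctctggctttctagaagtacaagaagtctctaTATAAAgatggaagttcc
Mmp10 (chr9:7502267-7502330, plus strand): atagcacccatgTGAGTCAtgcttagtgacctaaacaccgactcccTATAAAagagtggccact
Mmp20 (chr9:7628124-7628190, plus strand): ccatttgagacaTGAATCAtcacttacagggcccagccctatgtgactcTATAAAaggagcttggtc
TGANTCA was followed within 50 bases by TATAAA in 8 of the 10 genes of the run, with 12 to 41 bases between them, and the motifs did not overlap. Counted from the annotated start, TATAAA began between -58 in Mmp20 and 4 in Mmp12. In 6 of these 8 genes the first motif read TGAGTCA. A further start of Mmp7 and one of Mmp12 had no TGANTCA in its window, and neither had Mmp8 and Mmp27. Of all 32851 promoter windows searched, 7.81% held TGANTCA and 0.192% held the pair. Counted per gene, as in the run, the shares were 8.97% and 0.233% of 27025 genes. Outside the run, 20 family members had a window and none held TGANTCA, among them Timp1, Timp2, Timp3, Mmp14 and Adamts9. For 14 members, Mmp2, Mmp19 and Adamts5 among them, there was no window. The letters were thus present in Mmp7 and Mmp12 and also in 6 neighbours that no pool showed above 43. A match is a description of the letters and not of a factor bound there.

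The second set of genes was higher in the MDR2-null pool and higher again in the double-null pool. Mmp14, Timp2 and Mmp2 encode a working unit: MMP14 is a membrane-anchored MMP that, with TIMP2 as a bridge, activates the precursor of the gelatinase MMP2. Mmp14 was 948 in the double-null, 524 in the GHR-null, 586 in the MDR2-null and 372 in the wild-type pool. Timp2 was 558, 283, 325 and 199 in the same pools. Their steps were alike in size: 1.62-fold and 1.72-fold between double-null and MDR2-null livers, and 1.58-fold and 1.63-fold between MDR2-null and wild-type livers. Mmp2 was 544, 157, 287 and 142, so that the double-null pool was 1.90-fold above the MDR2-null pool, and this 2.02-fold above wild type. In the GHR-null pool Mmp2 was 1.11-fold wild type, while Mmp14 and Timp2 were 1.41-fold and 1.42-fold. All 3 are known products of stellate cells and fibroblasts. Of 12 stellate cell markers, 2 passed 1.5-fold upward and 2 downward in double-null against MDR2-null livers. The shares over all genes that passed the filter were 7.17% and 3.89%. The 12 markers summed to 10858, 8161, 8635 and 6664 in the double-null, GHR-null, MDR2-null and wild-type pools. Dcn alone held most of each sum, at 6466, 4295, 4928 and 3591. Acta2, the smooth muscle actin of myofibroblasts, was 223 in the double-null, 216 in the GHR-null, 324 in the MDR2-null and 150 in the wild-type pool. The part of these cells in the values was not tested.

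The inhibitors were higher in the same pools. Timp1, a secreted inhibitor induced in injured liver, was 229 in the double-null, 42 in the GHR-null, 129 in the MDR2-null and 40 in the wild-type pool. It was 5.72-fold higher in double-null than wild-type livers, rank 73 of 10487. The wild-type value is low, and the log2 difference of 2.52 was 1.63 with 50 added to each intensity. Timp3, which is held in the matrix and also blocks ADAM and ADAMTS proteases, was 393, 251, 262 and 179, which is 2.20-fold between double-null and wild-type livers. Its fold between double-null and MDR2-null livers sits exactly at the threshold. Timp1, Timp2 and Timp3 were highest in the double-null pool, and Timp4 stayed at or under 35.

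**Figure D3:**
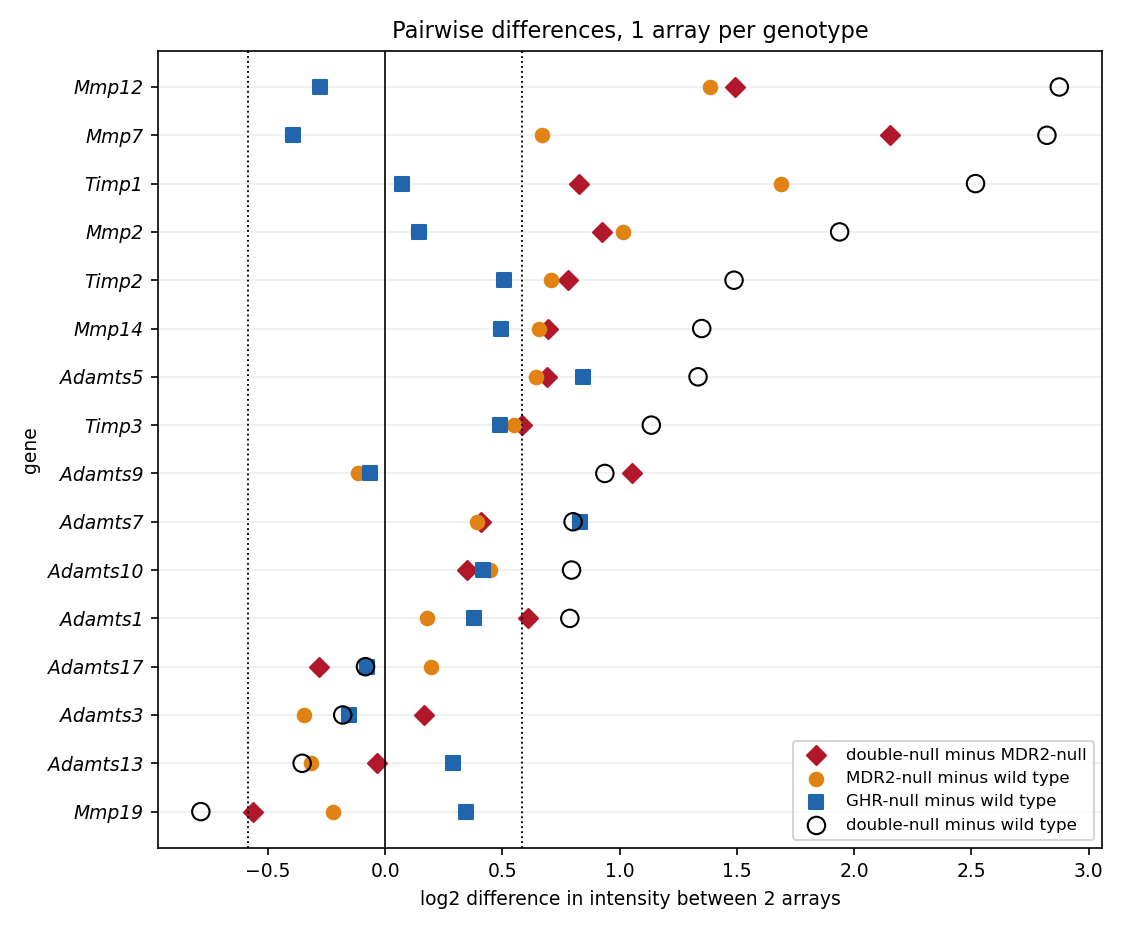
Log2 differences in intensity of the 16 genes that reached 100, each between 2 single arrays, with dotted lines at 1.5-fold. Diamonds (double-null minus MDR2-null) and circles (MDR2-null minus wild type) both lie right of 0 for 11 genes, among them Mmp12, Mmp7, Timp1, Mmp2 and Adamts10, and both lie left of 0 for Mmp19 and Adamts13, though the diamond of Adamts13 turns right of 0 with hepatocyte centring.

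Counted by comparison, MDR2 loss alone (MDR2-null against wild-type livers) gave 6 called genes higher of the 44, namely Timp1, Mmp12, Mmp2, Timp2, Mmp7 and Mmp14, and none lower. The level filter passed 15 of the 44, and over all genes that passed it 6.11% were higher and 3.58% lower. Without the filter 7 of the 44 were higher, 15.9%, beside 4.17% of all 19938 genes. The median log2 difference of the 44 was 0.24, beside 0.00 for all genes. At 2-fold 3 were higher (Mmp12, Mmp2 and Timp1), beside 2.35% of the genes that passed the filter. GHR loss on top of MDR2 loss (double-null against MDR2-null livers) addresses the question in the series title, whether growth hormone resistance adds to cholestatic liver fibrosis. It gave 10 of the 44 higher and none lower, with 16 passing, beside backgrounds of 7.17% higher and 3.89% lower. The 10 were Mmp7, Mmp12, Mmp2, Mmp14, Timp1, Timp2, Timp3, Adamts1, Adamts5 and Adamts9. Without the filter the count was also 10, 22.7% of the 44, beside 4.51% of all genes. At 2-fold 3 were higher (Adamts9, Mmp12 and Mmp7), beside 2.31% of the genes that passed the filter. The median log2 difference of the 44 was only 0.08, beside 0.00 for all genes, and it was -0.01 with median centring, where each array's own median over the filtered genes is subtracted. The 2 comparisons share the MDR2-null pool.

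The double-null pool against wild type gave 12 of the 44 higher and 1 lower, beside backgrounds of 13.7% and 7.59%. To the 10 genes above it adds Adamts7 and Adamts10, and the lower gene is Mmp19. Without the filter 14 were higher, 31.8% of the 44, beside 8.73% of all genes. The median log2 difference of the 44 between these pools was 0.24, beside 0.00 for all genes. At 2-fold, with the filter, 8 were higher and none lower, beside 6.88% and 2.98% of the genes that passed it. In the double-null against the GHR-null pool 16 members passed the filter, of which 8 were higher and 2 lower (Mmp19 and Adamts13). Of all genes that passed it there, 9.99% were higher and 9.94% lower, and the median log2 difference of the 44 was 0.20, beside -0.02 for all genes.

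Of the 8 ADAMTS genes that reached 100, 5 were called higher in double-null than wild-type livers, beside 13.7% of all genes that passed the filter. The 5 were Adamts1, Adamts5, Adamts7, Adamts9 and Adamts10. Adamts1, Adamts5 and Adamts9 encode proteases that cut versican. Adamts5 was 121, 86, 75 and 48 in the double-null, GHR-null, MDR2-null and wild-type pools, so only the double-null value passed 100. Adamts1 was 195, 147, 128 and 113, and Adamts10, which acts on fibrillin microfibrils, was 196, 151, 154 and 113. Each was highest in the double-null and lowest in the wild-type pool. The substrate versican (Vcan) was 115 in the double-null, 30 in the GHR-null, 38 in the MDR2-null and 23 in the wild-type pool. Adamts7, which cuts the cartilage protein COMP, had another order, at 345, 352, 260 and 198: its GHR-null value was as high as its double-null value.

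Adamts9 has 6 rows, and the rule takes the one with the highest mean. On that row Adamts9 was 400 in the double-null, 200 in the GHR-null, 193 in the MDR2-null and 209 in the wild-type pool, 2.07-fold higher in double-null than MDR2-null livers and 0.92-fold in MDR2-null against wild-type livers. The other 5 rows disagree with it on loss of MDR2 alone: they were 1.49-fold to 2.45-fold higher in MDR2-null than wild-type livers. All 6 rows were higher in double-null than wild-type livers, by 1.71-fold to 6.62-fold, and 5 of the 6 passed 1.5-fold in double-null against MDR2-null livers. The mean of the rows was 1.64-fold higher in MDR2-null than wild-type livers and 2.10-fold higher in double-null than MDR2-null livers, so Adamts9 belongs to the genes higher at each step if rows are averaged. Of the other genes with several rows, no row of Adamts17 (5 rows) or Adamts3 (16 rows) was 1.5-fold apart in the 4 main comparisons.

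**Figure D4:**
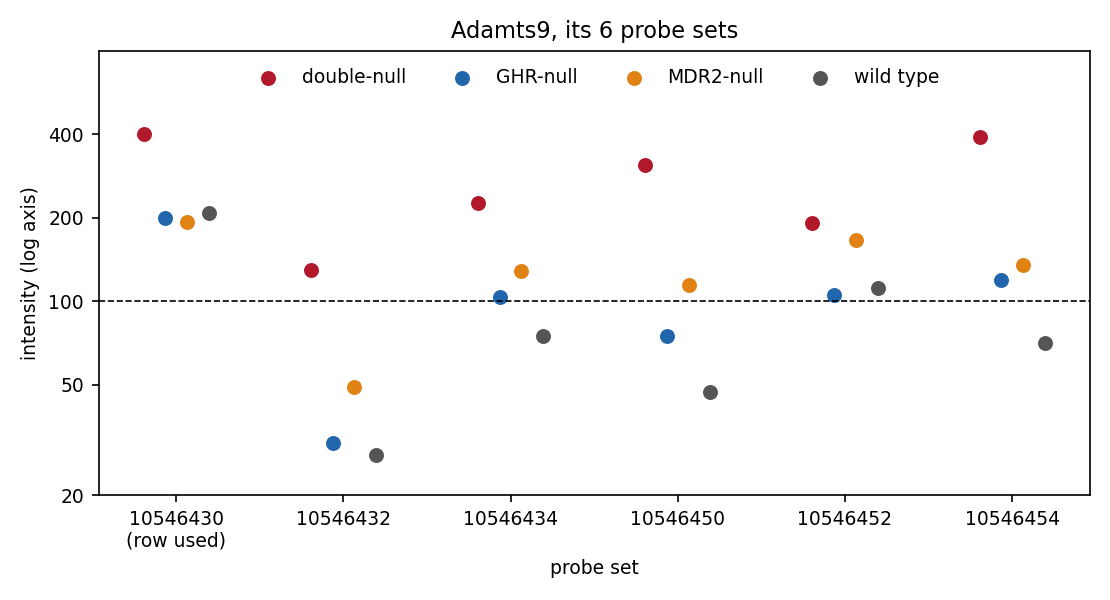
Intensity (log axis) of the 6 probe sets of Adamts9 in the 4 pools, with the dashed line at 100. The double-null point is the highest for each probe set, while the MDR2-null point lies above wild type for all but the row used, at 193 against 209.

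A few genes ran the other way. Mmp19, an MMP of vessel walls and keratinocytes, was 465 in the double-null, 1018 in the GHR-null, 687 in the MDR2-null and 802 in the wild-type pool. The double-null value was 1.73-fold below wild type and 2.19-fold below GHR-null. Adamts13, made in liver by stellate cells, was 158, 247, 162 and 202, with the 2 pools without MDR2 below the 2 pools with it. Its difference passed 1.5-fold in double-null against GHR-null livers, at 1.56-fold lower. Adamts3 and Adamts17 were between 100 and 127 and between 233 and 283, and no comparison of their values reached 1.5-fold.

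For GHR loss alone (GHR-null against wild-type livers) the counts were too small to tell the family from genes in general. Of the 44, 12 passed the filter, 1 was higher and none lower, beside backgrounds of 4.26% higher and 2.48% lower. The gene was Adamts7, 1.78-fold higher. Without the filter 2 were higher, 4.55% of the 44, beside 2.62% of all genes. At 2-fold with the filter none was higher, beside 1.06% of the genes that passed it. Adamts5 was 1.79-fold higher with both values under 100. Timp2, Mmp14 and Timp3 were 1.42-fold, 1.41-fold and 1.40-fold higher, short of the threshold. The median log2 difference of the 44 was 0.04, beside 0.05 for all genes, and it was -0.08 with median centring. These values rest on the pool with Xist at 1400, whose part in them was not tested.

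How the single losses added up separated the genes. The double-null difference from wild type was set against the sum of the MDR2-null and GHR-null differences on the log2 scale, and their gap had a robust SD of 0.33 over 10764 genes. That SD describes a typical gene and is no limit for a single one. In 8 of the 16 genes the gap was under 1 robust SD, beside 66.9% of the 10764 genes: Timp3 stood at 1.13 against a sum of 1.04, Mmp14 at 1.35 against 1.15, Timp2 at 1.49 against 1.22 and Adamts5 at 1.33 against 1.49. In 6 it was over 2 robust SDs, beside 9.57% of the 10764 genes. Mmp7 stood at 2.82 against a sum of 0.28 and Adamts9, on the row used, at 0.94 against -0.18. On the mean of its 6 rows the gap of Adamts9 was 0.76, in place of 1.11. Mmp12 stood at 2.87, which is 1.77 above its sum. Mmp2 was 1.94 against 1.16, Timp1 2.52 against 1.76 and Mmp19 -0.79 against 0.12. All sums use the GHR-null pool, and the GHR-null and wild-type values of Mmp7, Mmp12, Timp1 and Adamts5 were under 100.

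**Figure D5:**
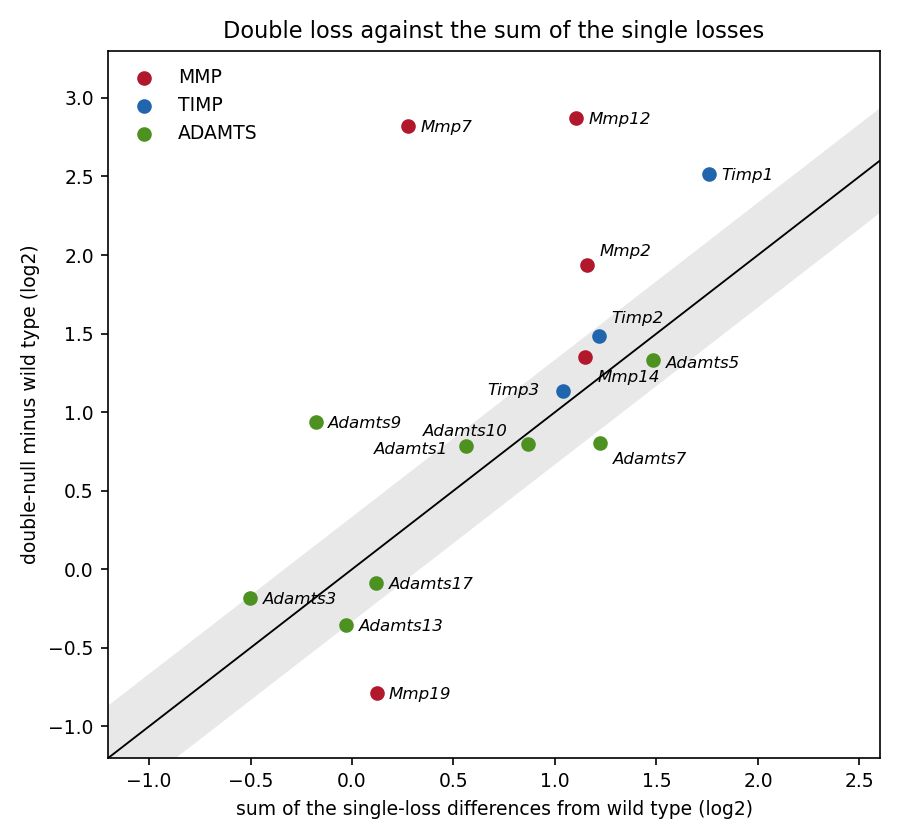
Double-null minus wild-type log2 difference (y axis) against the sum of the single-loss differences (x axis) for the 16 genes that reached 100, with the line of equality and a grey band of 1 robust SD over all genes. Mmp7, Mmp12 and Adamts9 (on the row used) lie well above the band and Mmp19 below it, while Timp2, Timp3, Mmp14 and Adamts5 lie within it.

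The only test the design allows is limma with an additive model of GHR status and MDR2 status over 4 arrays. It leaves 1 residual degree of freedom per gene and takes each effect to be the same in both backgrounds. That degree of freedom is the gap from additivity described above. The SE and p rest on it and on the gaps of the other tested genes, and hold no spread between mice or between pools of a genotype. Timp1 and Mmp2, called below, were both over 2 robust SDs from additivity. For the average effect of MDR2 loss 2 of the 16 tested members were called higher and none lower at an adjusted p of 0.05, beside 2.99% higher and 0.762% lower of 10764 genes. Timp1 was higher by 2.07 ± 0.21 on the log2 scale (SE, limma, adjusted p = 0.0236) and Mmp2 by 1.40 ± 0.22 (SE, limma, adjusted p = 0.0405), each higher in both pools without MDR2 than in its counterpart with it. Just past the threshold were Timp2 (limma adjusted p = 0.0504), Mmp12 (limma adjusted p = 0.0515) and Mmp14 (limma adjusted p = 0.0563). Mmp7, with an effect of 1.94 ± 0.57 on the log2 scale, had a limma adjusted p of 0.125. Timp1, Mmp12 and Mmp7 reached 100 only in the pools without MDR2, which this effect sets against the others. They thus entered the fit through the values being tested. With the filter on the mean of 4 arrays Timp1 was not in the fit. For the average effect of GHR loss limma called none of the 16, beside backgrounds of 0.204% higher and 0.316% lower, although 7 had an unadjusted p under 0.05. The smallest limma adjusted p was 0.158, for Adamts5, which entered the fit only through its double-null value. The Timp1 and Mmp2 calls were lost without the level filter, where limma called no gene of the whole table in either direction and the adjusted p of each was 0.327. The Mmp2 call was also lost with the filter at the 75th percentile and with cyclic loess. Without the GHR-null array no residual degree of freedom remains, so no test can be made.

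Beside the family, partners of the same pathways were counted from lists. Of all genes that passed the filter, 7.17% were higher and 3.89% lower in double-null against MDR2-null livers. In that comparison 4 plasminogen genes, 3 ADAMTS-like genes and 10 substrates passed it. In MDR2-null against wild-type livers 9 substrates passed, and 6.11% of all passing genes were higher. In the plasminogen system, whose protease plasmin activates MMP precursors, 2 of 5 measured genes were at least 1.5-fold higher in double-null than MDR2-null livers. These were the activators Plat, at 137, 34, 75 and 38 in the double-null, GHR-null, MDR2-null and wild-type pools, and Plau, at 119, 60, 67 and 63. Of 6 ADAMTS-like genes, matrix proteins without protease activity, 1 was higher in that comparison: Adamtsl2, which binds fibrillin and latent TGF beta binding protein, at 356, 84, 174 and 102. Of 13 MMP and ADAMTS substrates only Vcan was higher, by 3.03-fold, and none lower, while in MDR2-null against wild-type livers 5 were higher: Col1a1, Col1a2, Col3a1, biglycan (Bgn) and elastin (Eln). Bgn was 3049 in the double-null, 1576 in the GHR-null, 2869 in the MDR2-null and 1532 in the wild-type pool.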

How the data were processed

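RNA pooled from 3 livers per genotype was measured on 4 arrays, 1 per genotype. The authors deposited 1 intensity for each probe set on each array, which per the submitters' processing notes came from RMA, a method of background correction, quantile normalization and probe summary, in Affymetrix Expression Console 1.1. The deposited intensity values are whole numbers from 6 to 22355, so log2 was taken here, and rounding makes low values coarse. Of 35556 rows, 21789 had 1 gene symbol, 1621 several and 12146 none, and only the first were used. Where a gene had several rows, that of highest mean over the 4 arrays stood for it. All 44 members matched the RefSeq table by gene identifier.

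Differences are between single arrays. limma 3.58.1 (lmFit, eBayes, R 4.3.3) with additive GHR and MDR2 factors was run on 10764 genes whose highest array reached 100, with 4.34 prior degrees of freedom and Benjamini-Hochberg adjustment. The code was tested on simulated data.

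The members and lists were chosen with earlier results of these data known. All members may be named. Values in 4 pools are given for members called in a comparison, and for Mmp2, Mmp9, Mmp13, Mmp14 and the TIMPs. Related and marker lists are given as counts with up to 4 members of largest difference, and other genes named, among them neighbours and substrates, were chosen after their values were seen. Alternatives were other level filters, a 2-fold threshold, cyclic loess, centring, an offset of 50, the mean of rows and robust limma.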

Additional observations from a re-analysis of the deposited data

Results flagged for a closer look

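For 4 genes the log2 difference with GHR loss had opposite signs without and with MDR2, each sign resting on 1 pool against 1 pool. The differences between the effects were not tested. Mmp7 was 2.15 higher on the log2 scale in double-null than MDR2-null livers, with a log2 difference of -0.39 in GHR-null against wild-type livers, a difference between the effects of 2.55. For Mmp12 the log2 differences were 1.49 and -0.28, with a difference of 1.77. For Adamts9 they were 1.05 and -0.06, the latter within the robust SD of a single difference, 0.23. Its difference between the effects was 1.11 on the row used and 0.76 on the mean of its 6 rows, where both effects were positive. For Mmp19 the log2 differences were -0.56 and 0.34, with a difference of -0.91. Over the other settings of scaling, offset and rows the difference ranged between 1.98 and 2.58 for Mmp7, 1.35 and 1.81 for Mmp12, and -0.91 and -0.84 for Mmp19. The wild-type and GHR-null values of Mmp7 and Mmp12 lie under an intensity of 100, and all 4 results use the pool with Xist at 1400.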

How the results depend on the processing

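Called members higher in MDR2-null against wild-type livers numbered 6, and 1 (Mmp14) with the level filter at the 75th percentile (intensity 329) and 3 at 2-fold. In the GHR-null against the wild-type pool the count was 1, against 2 without the filter and 0 at 2-fold. In the double-null against the MDR2-null pool 10 were higher, against 3 at 2-fold (Adamts9, Mmp12 and Mmp7), and none lower, against 1 (Mmp19) with cyclic loess and 1 with median centring. The lower gene of the double-null against the wild-type pool was not called at 2-fold, a count of 0. The limma count for MDR2 loss was 2, against 0 without the filter, 0 with the 75th percentile filter, 1 with cyclic loess, 4 with a filter on the mean of 4 arrays, 4 with trend and robust settings and 5 with the mean of rows. At an unadjusted p under 0.05 these zero counts were 15 and 7. The limma adjusted p ranged between 0.0178 and 0.327 for Timp1 and between 0.0237 and 0.327 for Mmp2. The causes were not tested, except that Timp1 does not reach the 75th percentile and was not in that fit. With rows and threshold taken from 3 arrays, without the GHR-null array (chosen after seeing the data), the counts were the same. The deposited values themselves were not normalized anew for this setting. Of 400 log2 differences of 16 named members under other settings, 21 moved by more than 0.23 and none of a called one changed sign. Of those 21, the offset of 50 accounts for 17, in Mmp7, Mmp12, Mmp2, Timp1 and Adamts5. Median centring shifted all genes by -0.12 in GHR-null against wild-type livers and turned Timp1 there below 0. Hepatocyte centring shifted the double-null against the wild-type pool by 0.12. Leaving out an array of a genotype was not run, since each genotype has 1. No paired analysis was possible because each genotype had 1 array.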

Other observations

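Other proteases of the same compartments differed between these pools. Of all genes that passed the filter, 7.17% were higher and 3.89% lower in double-null against MDR2-null livers. In double-null against wild-type livers 13.7% were higher. In both comparisons 10 genes of the cathepsin list, 8 ADAM genes and 3 genes of the procollagen list passed the filter. Of 10 genes of the cathepsin list, which includes the inhibitor Cst3, 2 were at least 1.5-fold higher in double-null than MDR2-null livers and none lower. Ctss, a lysosomal elastase of macrophages, was 1410 in the double-null, 450 in the GHR-null, 825 in the MDR2-null and 319 in the wild-type pool. Ctsk, the collagen-cutting cathepsin of osteoclasts, was 107, 60, 61 and 54, and passed the filter only through its double-null value. Ctse, an aspartic protease, was highest in the GHR-null pool, at 688, 1071, 717 and 427. Of 12 ADAM genes, membrane-bound sheddases and relatives, none was called between double-null and MDR2-null livers and 3 were higher in double-null than wild-type livers: Adamdec1 at 295, 140, 231 and 119 in the 4 pools, Adam10 at 788, 490, 593 and 452, and Adam23 at 458, 287, 331 and 269. Of 6 genes of procollagen C-proteinases and relatives, Pcolce, an enhancer of procollagen trimming, was higher in the double-null (320) than in the wild-type pool (145).

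Among 10 convertases, surface regulators and clearance genes, 9 passed the filter and 2 were called lower in double-null than MDR2-null livers. The share over all genes that passed was 3.89%. Mug2, a murinoglobulin that traps proteases in plasma, was 1511 in the double-null, 4098 in the GHR-null, 6461 in the MDR2-null and 7757 in the wild-type pool. Pcsk6, a convertase of protease precursors, was 666, 1579, 1079 and 1237. Furin, the convertase that activates MMP14, was 1732, 1861, 1731 and 1641.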
